A study of Mus musculus with 24 samples.

Results

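The muscle miRNAs measured here were 5 probes of the NanoString nCounter mouse miRNA panel, namely mmu-miR-1, mmu-miR-133a, mmu-miR-133b, mmu-miR-206 and mmu-miR-499 (the species prefix is dropped from here on). They were picked by name, as miRNAs enriched in skeletal and heart muscle, out of 566 mouse miRNA probes in the deposited table. The RNA was exosomal, that is, the RNA of small vesicles that cells release into blood, from 24 mouse serum samples in 4 groups of 6. All samples came from male C57BL/6N mice aged 40 weeks. WD+CCl4 mice received carbon tetrachloride, a liver toxin, on a western diet of high-fat food with a drink that held fructose at 23.1 g/L and glucose at 18.9 g/L. ND+CCl4 mice had normal chow, tap water and carbon tetrachloride. WD+oil mice had the western diet and corn oil, and ND+oil mice had normal chow, tap water and corn oil. Every group, ND+oil included, received 1 injection per week into the abdomen. The labels call the groups HCC (liver cancer), cirrhosis, NASH (fatty liver with inflammation) and normal in that order. No label says that each sample is a different animal, and the spread behind the p-values may thus be partly technical.

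miR-1 and miR-133a are made together from shared precursors in heart and skeletal muscle, while miR-206 and miR-133b form a second pair of related miRNAs that is largely restricted to skeletal muscle. miR-1 and miR-206 act in muscle differentiation, the miR-133 miRNAs in the balance between proliferation and differentiation of muscle precursors, and miR-499 and its relatives miR-208a and miR-208b lie inside myosin heavy chain genes and act on the choice of myosin type. In blood these miRNAs are best known as markers released after injury to heart or skeletal muscle. In serum, fewer vesicles from muscle and less miRNA per vesicle cannot be told apart.

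RefSeq's miRNA table (GRCm38.p6) gave the mature sequence of 3 of the 5 members, and that of miR-208a is added because its values followed those of miR-499. The panel names carry no arm, and the arm shown is the one for which the plain name was in use. Capitals mark the seed, bases 2 to 8 from the 5′ end, the stretch through which a miRNA finds most of its targets.
miR-206-3p: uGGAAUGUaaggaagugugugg
miR-133b-3p: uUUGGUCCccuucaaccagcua
miR-499-5p: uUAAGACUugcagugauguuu
miR-208a-3p: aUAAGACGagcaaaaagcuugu
miR-206 lies at chr1:20679055-20679076 and miR-133b at chr1:20682834-20682855, both on the plus strand within the long non-coding RNA gene Lincmd1, with 3686 bases between their hairpins. miR-499 lies at chr2:155622893-155622913, on the plus strand within the myosin gene Myh7b. miR-208a lies at chr14:54949072-54949093, on the minus strand within the myosin gene Myh6. The seeds of miR-206, miR-133b and miR-499 were all different, and those of miR-499 and miR-208a had 6 of 7 bases in common.

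The deposited values are digital counts, each a number of barcoded probes seen, that the authors multiplied by 1 factor per library. Whole counts were recovered from them, and the background limit of a library was set at the mean plus 2 SD of its 8 negative control probes. Library totals ranged from 42478 to 1496818 miRNA counts, which set the precision. The limit lay between 31.0 and 71.2 counts, but between 16.8 and 277 on the deposited scale, since shallow libraries were multiplied most. Replicates 1 to 3 were shallower (median total 69551) than replicates 4 to 6 (median 254312), a split for which no label names a batch. ND+CCl4 replicate 1 and WD+CCl4 replicate 1 had the highest totals (1496818 and 1328912), and are the 2 libraries said below to stand apart. ND+CCl4 replicate 5 came next (1115412) and was kept where those 2 are left out. It had the highest haemolysis index, log2 miR-451 minus log2 miR-23a (6.36).

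The muscle miRNAs were scarce in these samples. Together the 5 members took between 0.0938% and 0.296% of the miRNA counts in WD+CCl4 libraries (median 0.191%), 0.0434% to 0.537% in ND+CCl4 (median 0.131%), 0.0976% to 0.180% in WD+oil (median 0.146%) and 0.162% to 0.627% in ND+oil (median 0.189%). The lowest share, 0.0434%, was that of ND+CCl4 replicate 5, the library with the highest haemolysis index. The part of red cell miRNA in that share was not tested. In the plot of counts over the limit, miR-133a was above the background limit in 23 of 24 libraries, miR-499 in 17, miR-206 in 15, miR-1 in 10 and miR-133b in 0. Of all combinations of a member and a library, 21 of 30 exceeded the limit in WD+CCl4, 17 in ND+CCl4, 11 in WD+oil and 16 in ND+oil. Totals reached 139911 to 1328912 in WD+CCl4, against 42478 to 204535 in ND+oil, and the part of this depth in the number of libraries above the limit was not tested. With the log2 total as a covariate 0 of 4 members passed in each of the 6 comparisons described below, where 9 of all 158 miRNAs passed in WD+CCl4 against ND+oil, 1 in ND+CCl4 against ND+oil, 22 in WD+oil against ND+oil, 3 in WD+CCl4 against ND+CCl4 and 0 in the other two. Differences were tested for the 158 miRNAs that exceeded the limit in 6 or more libraries, 4 of the 5 members among them.

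**Figure D1:**
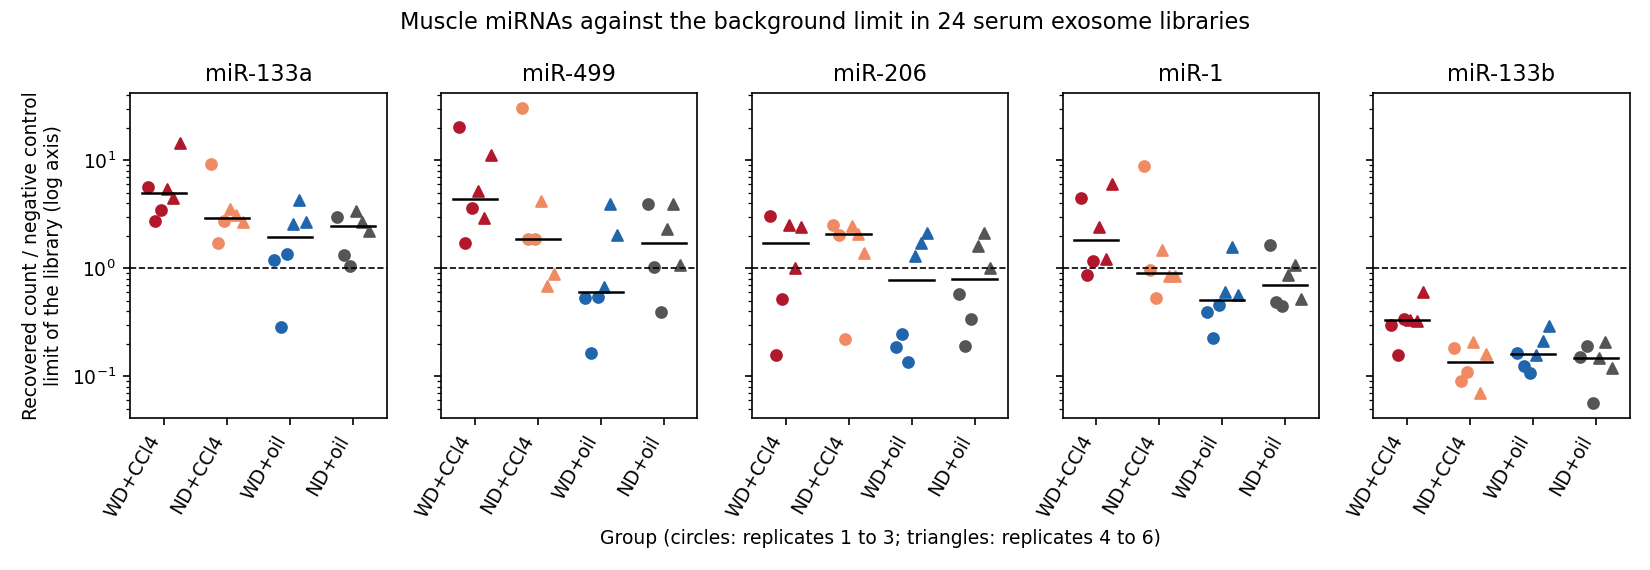
Recovered count of each muscle miRNA divided by the background limit of its library (log axis), for 6 libraries per group; circles are replicates 1 to 3, triangles replicates 4 to 6, short lines medians, and the dashed line marks the limit. miR-133a lies above the line in 23 of 24 libraries and miR-133b below it in all 24, where its highest value is 0.609 of the limit.

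miR-133a, which restrains proliferation genes and the serum response factor in muscle, was the member most often detected. Its deposited values ran from 95.9 to 313 in WD+CCl4 (median 176), from 104 to 664 in ND+CCl4 (median 139), from 80.03 to 221 in WD+oil (median 151) and from 121 to 522 in ND+oil (median 203). All 4 groups overlapped, and the highest single values belonged to ND+CCl4 replicate 3 (664) and ND+oil replicate 1 (522). Both of these are shallow libraries, in which 664 stands for 125 counts and 522 for 120. On the log2(value + 1) scale the group means were 7.59 ± 0.62 in WD+CCl4, 7.43 ± 1.00 in ND+CCl4, 7.20 ± 0.53 in WD+oil and 7.74 ± 0.71 in ND+oil (SD, n = 6). From high to low the order was thus ND+oil, WD+CCl4, ND+CCl4 and WD+oil, and each step was smaller than the SD of either neighbour. The sole library under the limit was WD+oil replicate 2, with 14 counts beside a limit of 48.4.

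miR-133b, a close relative of miR-133a, gave no signal above background. Its recovered counts were 5 to 23 in WD+CCl4, 3 to 13 in ND+CCl4, 4 to 16 in WD+oil and 2 to 8 in ND+oil, while the limits ran from 31.0 to 71.2 counts. Its deposited values of 2.73 to 34.3 therefore lie within background, and it was not among the 158 miRNAs tested. Without the filter, over all 566 miRNAs, its log2 differences ran from -0.92 (ND+CCl4 against ND+oil, limma adjusted p = 0.321) to 0.72 (WD+CCl4 against ND+CCl4, adjusted p = 0.996), and these compare background counts.

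miR-1, which promotes muscle differentiation, lay close to the limit in many libraries. The deposited values were 48.9 to 129 in WD+CCl4 (median 76.9), 33.4 to 153 in ND+CCl4 (median 57.7), 28.9 to 75.0 in WD+oil (median 62.2) and 37.4 to 287 in ND+oil (median 66.3). It exceeded the limit in 5 of 6 libraries of WD+CCl4, 2 of 6 of ND+CCl4, 1 of 6 of WD+oil and 2 of 6 of ND+oil, so that 5 of its 10 passing libraries came from WD+CCl4. Over the whole panel, too, the largest number of miRNAs above the limit (213) was found in a WD+CCl4 library, beside at most 203 in ND+CCl4. The groups overlapped, and the highest value, 287 in ND+oil replicate 1, stood for 66 counts beside a limit of 39.9. The largest count was 386, in ND+CCl4 replicate 1. Its group means on the log2 scale were 6.28 ± 0.52 in WD+CCl4, 6.10 ± 0.86 in ND+CCl4, 5.68 ± 0.61 in WD+oil and 6.27 ± 1.04 in ND+oil (SD, n = 6). WD+CCl4 and ND+oil stood nearly level at the top of that order, and WD+oil was lowest, each step being smaller than the SD of either neighbour.

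miR-206, the member most restricted to skeletal muscle, was detected according to the set of replicates. It exceeded the limit in 12 of 12 libraries of replicates 4 to 6 and in 3 of 12 of replicates 1 to 3. Those 3 were WD+CCl4 replicate 1, ND+CCl4 replicate 1 and ND+CCl4 replicate 2, the deepest libraries of that set. Its deposited values were 9.82 to 81.6 in WD+CCl4 (median 48.5), 42.9 to 127 in ND+CCl4 (median 76.6), 22.1 to 108 in WD+oil (median 64.5) and 32.7 to 99.997 in ND+oil (median 83.4), and all groups overlapped. The log2 means were 5.36 ± 1.00 in WD+CCl4, 6.21 ± 0.55 in ND+CCl4, 5.75 ± 0.82 in WD+oil and 6.20 ± 0.59 in ND+oil (SD, n = 6), with ND+CCl4 and ND+oil level at the top and WD+CCl4 lowest, and each step again smaller than the SD of either neighbour. The lowest value, 9.82 in WD+CCl4 replicate 2, stood for 5 counts beside a limit of 31.9.

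miR-499, encoded within Myh7b, had the widest range. In WD+CCl4 its values were 342, 108, 314, 169, 115 and 239 in replicates 1 to 6, all of them above the limit. In ND+CCl4 they were 520, 116, 457, 124, 26.8 and 58.4, with replicates 5 and 6 below the limit. WD+oil gave 89.7, 45.7, 88.2, 32.2, 152 and 104, of which replicates 5 and 6 alone exceeded it. ND+oil gave 678, 174, 78.8, 136, 178 and 76.9, with replicate 3 below it. WD+oil thus had the lowest median (89.0), but every pair of groups overlapped. The log2 means were 7.61 ± 0.71 in WD+CCl4, 7.07 ± 1.65 in ND+CCl4, 6.26 ± 0.81 in WD+oil and 7.34 ± 1.14 in ND+oil (SD, n = 6). The order was WD+CCl4, ND+oil, ND+CCl4 and WD+oil, and no step between neighbours exceeded the larger of their 2 SDs.

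**Figure D2:**
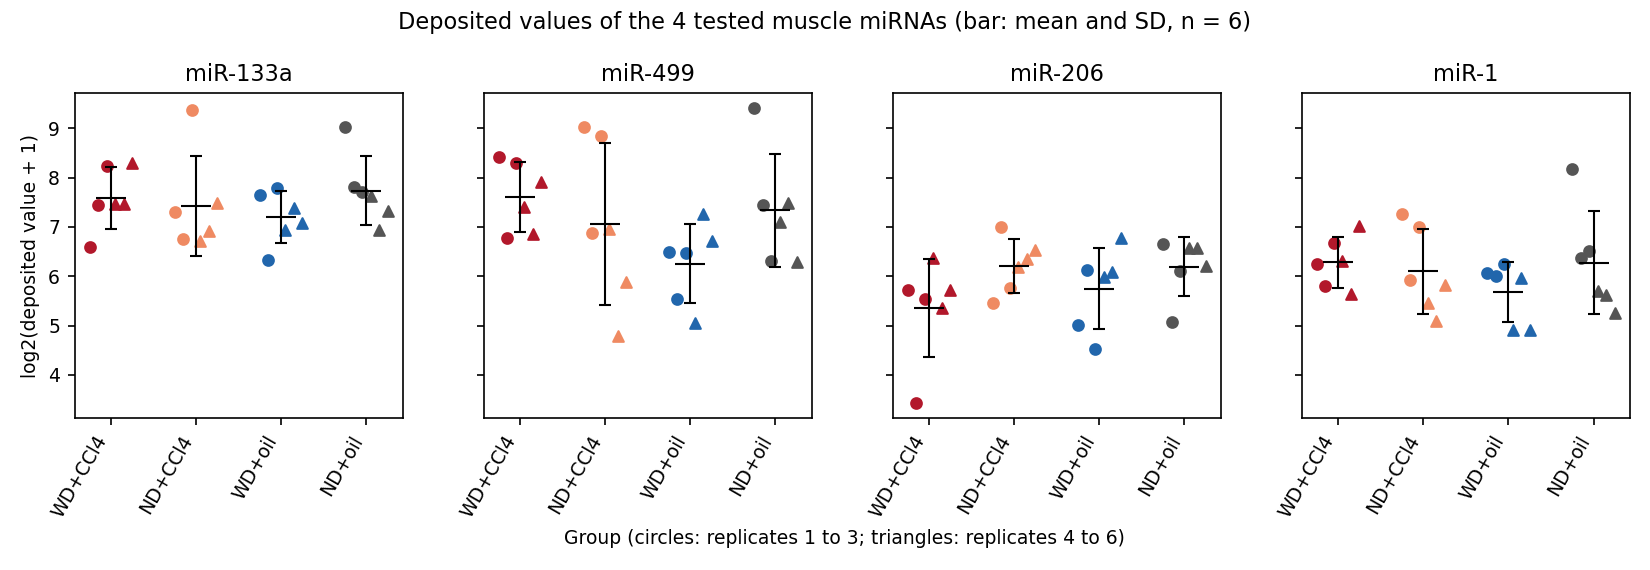
Deposited values of the 4 tested muscle miRNAs as log2(value + 1) in WD+CCl4, ND+CCl4, WD+oil and ND+oil, with 1 point per library (circles, replicates 1 to 3; triangles, replicates 4 to 6) and the mean and SD (n = 6). The groups overlap in each panel, and the lowest mean of miR-499 is that of WD+oil (6.26).

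Group differences were tested by limma on log2(deposited value + 1) over the 158 miRNAs, with Benjamini-Hochberg adjustment within each comparison. The comparisons ask what the diet, the toxin and both together changed in these serum exosomes. Between WD+CCl4 and ND+oil, the groups labelled HCC and normal, 0 of 4 muscle miRNAs passed an adjusted p of 0.05, where 15.8% of all tested miRNAs did. With an unadjusted p under 0.05 there were 0 of 4 by limma, edgeR and DESeq2, where 34.8% of all miRNAs had one by limma. With the replicate number as a block 47 of the 158 passed in place of 25, and still 0 of 4 members. The groups were without overlap in 0 of 4, where 10.1% of all were. On the authors' scaling miR-1 (log2 difference 0.01, SE 0.45), miR-133a (-0.15, SE 0.42) and miR-499 (0.27, SE 0.61) stood near 0, and miR-206 stood at -0.84 (SE 0.44, limma adjusted p = 0.164, with 5 of 6 samples below the mean of ND+oil). Further counts of samples are likewise set against the mean of the other group. The median of the 4 was -0.07, beside -0.17 over all 158. With values scaled to the 3 spike-in probes instead, miR-1 stood at 1.57, miR-133a at 1.41, miR-206 at 0.71 and miR-499 at 1.83. There the limma adjusted p ran from 0.187 to 0.605, and the median over all 158 was 1.37. How near 0 the members stood thus depended on the scaling. In the same libraries miR-122, the dominant miRNA of hepatocytes, was 39.2-fold higher (log2 5.29, SE 0.85). On the authors' scaling the 95% intervals of the muscle miRNAs reached from 0.494 to 1.64 of the ND+oil level for miR-133a, 0.531 to 1.91 for miR-1, 0.297 to 1.05 for miR-206 and 0.501 to 2.90 for miR-499.

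Between ND+CCl4 and ND+oil, the effect of the toxin on chow, 0 of 4 passed (1.27% of all miRNAs passed), 0 of 4 had an unadjusted p under 0.05 by limma, edgeR or DESeq2 (22.2% of all by limma), and 0 of 4 were without overlap (2.53% of all). The log2 differences were -0.31 (SE 0.42) for miR-133a, -0.28 (SE 0.61) for miR-499, -0.17 (SE 0.45) for miR-1 and 0.02 (SE 0.44) for miR-206, with limma adjusted p from 0.676 to 0.983. Their median was -0.22, beside -0.16 over all miRNAs. With the replicate block 19 of the 158 passed in place of 2, and still 0 of 4 members. Within the sets of replicates miR-499 went in opposite directions, with 0.52 in replicates 1 to 3 and -1.07 in replicates 4 to 6.

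Between WD+oil and ND+oil, the effect of the diet without the toxin, all 4 values lay below 0, as did 91 of all 158. Of the members 0 of 4 passed (10.8% of all miRNAs passed). An unadjusted p under 0.05 was found for 0 of 4 by limma and edgeR and for 1 of 4 by DESeq2, where 29.1% of all had one by limma. With the replicate block 37 of the 158 passed in place of 17, and still 0 of 4 members. miR-499 stood at -1.08 (SE 0.61, limma adjusted p = 0.256, lower in 6 of 6 samples), miR-1 at -0.59 (SE 0.45, adjusted p = 0.412, 6 of 6), miR-133a at -0.54 (SE 0.42, adjusted p = 0.416, 5 of 6) and miR-206 at -0.45 (SE 0.44, adjusted p = 0.548, 5 of 6). The median of the 4 was -0.56, beside -0.14 over all 158, and 0 of 4 were without overlap, where 15.8% of all miRNAs were. In the shallower set of replicates the 4 values ran from -1.55 to -0.72, and in the deeper set from -0.61 to -0.15, all below 0 in both. With 1 library left out at a time, miR-499 ran from -1.29 to -0.67 and miR-1 from -0.79 to -0.21. In the same way miR-133a ran from -0.70 to -0.28 and miR-206 from -0.67 to -0.20. ND+oil replicate 1 held the highest value of its group for all 4, which raises the mean that samples are counted against.

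Between WD+CCl4 and WD+oil, the effect of the toxin on the western diet, miR-499 had the largest difference of any member. It stood at 1.35 on the log2 scale (SE 0.61, 95% interval 0.09 to 2.62), higher in 6 of 6 samples, with an unadjusted limma p of 0.0375 and an adjusted p of 0.887, and so did not pass. It was the 1 of 4 members with an unadjusted p under 0.05, where 5.06% of all miRNAs had one. With spike-in scaling 3 of 4 had one (miR-499 2.80, miR-1 2.05 and miR-133a 1.84), beside a median of 1.43 over all miRNAs. It was 2 of 4 with the background subtracted, and 2 of 4 with the log2 total as a covariate. In each of these settings 0 of the 158 passed, and the share of all miRNAs with an unadjusted p under 0.05 is not given. By limma, edgeR and DESeq2 alike 0 of 4 members passed, and 0% of all miRNAs passed by limma. The miR-499 difference was 1.65 in the shallower set of replicates and 1.05 in the deeper one. The 4 WD+oil libraries below the background limit bear on this value, since their miR-499 counts of 8 to 30 cannot be told from background. With the mean of the negative controls subtracted, and values that fell under 1 set to 1, miR-499 stood at 2.82 (limma adjusted p = 0.301). That floor enters the difference. In the same setting miR-1 also stood at 2.82 (adjusted p = 0.0977), miR-133a at 1.42 and miR-206 at 0.90, beside a median of 0.32 over all miRNAs. The floor enters the miR-1 value too, since miR-1 was below the limit in 5 of 6 WD+oil libraries. These values thus cannot tell whether the larger value was particular to miR-499. Without that subtraction the other members stood at 0.60 (SE 0.45) for miR-1, 0.38 (SE 0.42) for miR-133a and -0.39 (SE 0.44) for miR-206, and 0 of 4 were without overlap, where 1.27% of all miRNAs were.

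Between WD+CCl4 and ND+CCl4, the effect of the diet added to the toxin, 0 of 4 passed (0.633% of all miRNAs passed), 0 of 4 had an unadjusted p under 0.05 by limma, edgeR or DESeq2 (12% of all by limma), and 3 of the 158 passed with the replicate block in place of 1, with 0 of 4 members. The groups were without overlap in 0 of 4 (1.27% of all). miR-206 stood at -0.86 (SE 0.44, limma adjusted p = 0.422, lower in 5 of 6 samples), and was -1.18 in the shallower and -0.54 in the deeper set of replicates. miR-499 stood at 0.55 (SE 0.61), with -0.41 in replicates 1 to 3 and 1.51 in replicates 4 to 6. The test of whether the diet acted differently with and without the toxin gave 1.63 (SE 0.87) for miR-499, 0.78 (SE 0.64) for miR-1, 0.70 (SE 0.59) for miR-133a and -0.41 (SE 0.63) for miR-206. Each had a limma adjusted p of 0.926, and 0% of all miRNAs passed that test. An unadjusted p under 0.05 was found for 0 of 4 by limma, edgeR and DESeq2, and for 3.8% of all by limma. The comparisons share libraries, so their values are not independent of each other.

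**Figure D3:**
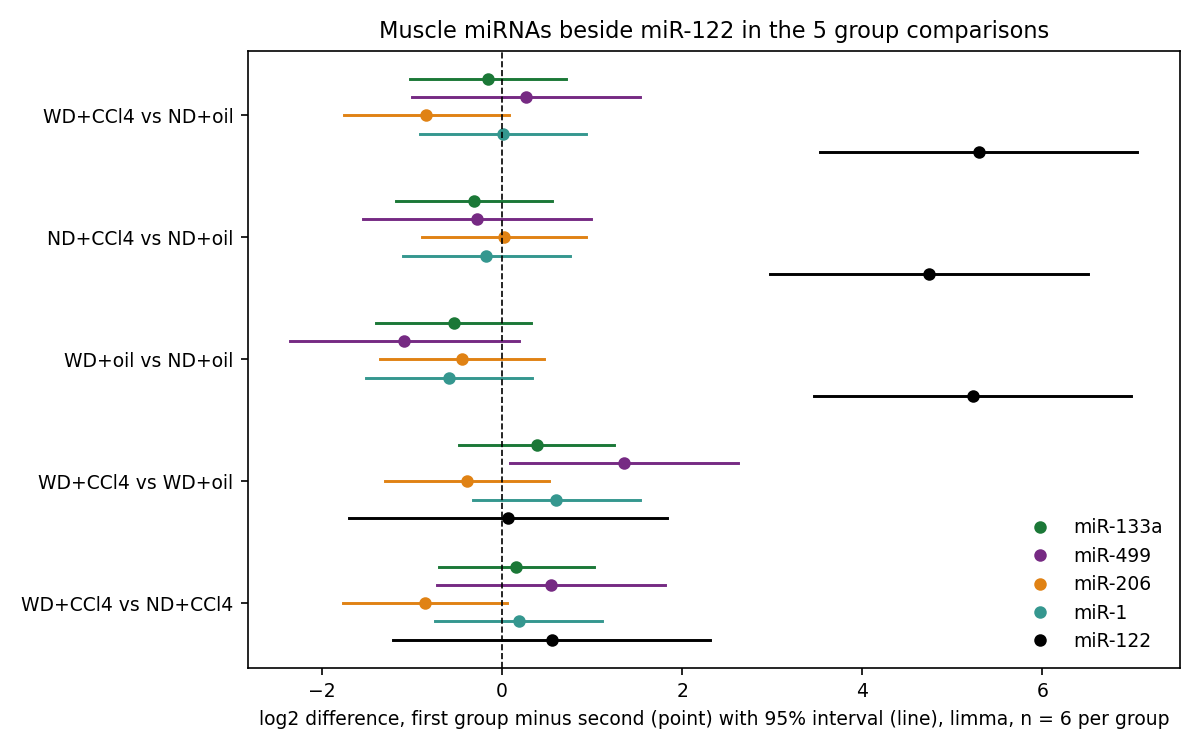
log2 differences (points) with 95% intervals (lines) of the 4 tested muscle miRNAs and of miR-122 in 5 group comparisons, n = 6 per group, first group minus second. The muscle miRNAs lie between -1.08 and 1.35, while miR-122 lies at 5.29, 4.74 and 5.23 in the 3 comparisons with ND+oil.

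The members were then compared with each other across the 24 libraries, after removal of the group means. Of the 10 pairs, 3 had both members above the limit in at least 12 libraries and were read. miR-133a and miR-499 were correlated by Pearson's coefficient but not past the threshold by ranks (Pearson r = 0.53, permutation p = 0.00728, adjusted p = 0.0182 over 10 pairs, n = 24; Spearman rho = 0.44, permutation p = 0.0307, adjusted p = 0.0615). Without the 2 samples farthest from the median of miR-133a r was 0.19 (permutation p = 0.41), so that the relation rests on those samples in this setting. It was 0.72 (permutation p = 0.00014) without the 2 libraries that stand apart, 0.57 (p = 0.00748) with the negative control mean subtracted and 0.60 (p = 0.0029) on recovered counts scaled to the total. It was 0.57 in the shallower and 0.18 in the deeper set of replicates. miR-206 showed no relation past the threshold with miR-133a (r = -0.22, permutation adjusted p = 0.42; rho = -0.19, adjusted p = 0.48) or with miR-499 (r = -0.03, adjusted p = 0.892; rho = 0.09, adjusted p = 0.682). All 24 libraries share the panel and their scaling, and differ in depth.

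The miRNA whose pattern was most like that of miR-499, out of 154 tested miRNAs outside the 5, was miR-208a. miR-208a is a heart miRNA encoded within Myh6, and it was above the limit in 22 of 24 libraries. The Pearson r of the deviations from the group means was 0.89 over 24 libraries (Spearman rho 0.86), against 0.56 for miR-2137 and 0.53 for miR-378, the next in order, and a median of -0.09 over the 154. The r with miR-208a was 0.90 within replicates 1 to 3, 0.84 within replicates 4 to 6, 0.86 without the 2 libraries farthest from the median of miR-499 and 0.88 without the 2 libraries that stand apart. On recovered counts scaled to each library's total it was 0.91, and with the negative control mean subtracted 0.66. No p is given, because the pair was picked as the highest of 154. Their mature sequences, printed above, have 6 of 7 seed bases and 12 of 21 same-numbered positions in common.

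miR-208a had deposited values of 152 to 728 in WD+CCl4 (median 256), 6.01 to 864 in ND+CCl4 (median 163), 66.6 to 353 in WD+oil (median 220) and 184 to 1556 in ND+oil (median 324). The library with the highest miR-499 value, ND+oil replicate 1, also had the highest miR-208a value (1556), and the library with the lowest miR-499 value, ND+CCl4 replicate 5, the lowest (6.01, which stands for 11 counts beside a limit of 71.2). ND+CCl4 replicate 5 also had the highest haemolysis index (6.36), and is not among the 2 libraries that stand apart. By limma miR-208a did not pass in any of the 5 comparisons of 2 groups, with log2 differences from -1.32 (SE 0.80, adjusted p = 0.322) for ND+CCl4 against ND+oil to 0.90 (SE 0.80, adjusted p = 0.799) for WD+CCl4 against ND+CCl4. Its relative miR-208b exceeded the limit in 1 of 24 libraries.

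**Figure D4:**
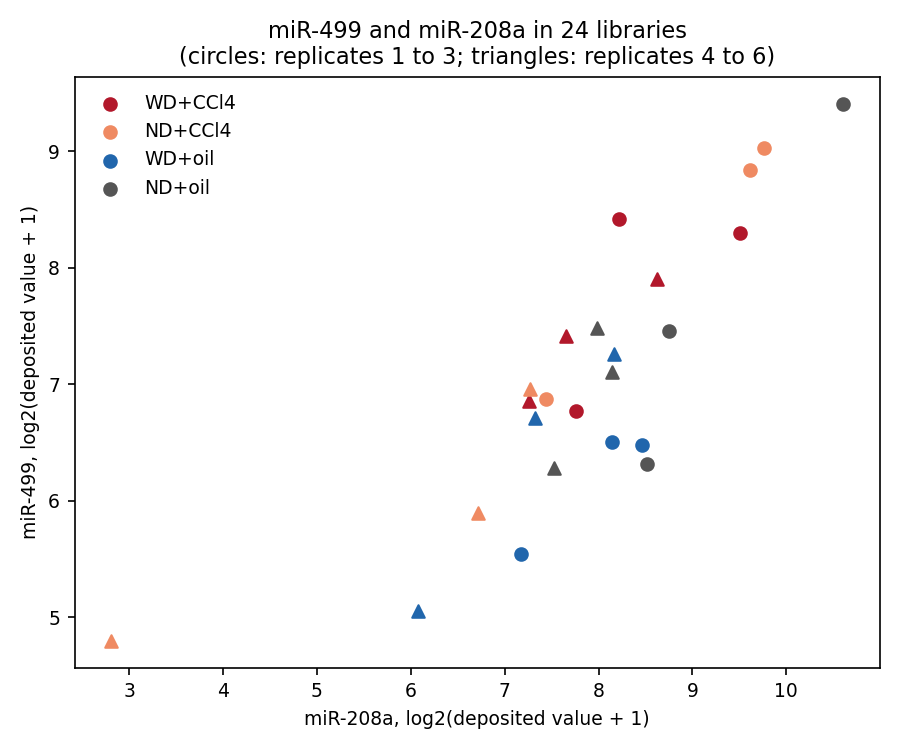
miR-499 against miR-208a as log2(deposited value + 1), with 1 point per library and 6 libraries per group; circles are replicates 1 to 3 and triangles replicates 4 to 6. The points run along 1 diagonal from ND+CCl4 replicate 5 at the lower left (miR-208a 6.01, miR-499 26.8 before the log) to ND+oil replicate 1 at the upper right.

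The miRNAs most like miR-133a were miR-547 (r = 0.60), miR-208a (0.59) and miR-142-5p (0.57). With the background subtracted these were 0.16, 0.44 and 0.07. Those most like miR-206 were miR-1897-3p (0.66), miR-1896 (0.62) and miR-126-5p (0.55), and within replicates 4 to 6, where miR-206 was above the limit in all libraries, the same values were 0.11, 0.15 and -0.03.

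A wider list of 9 miRNAs that are abundant in heart, skeletal or smooth muscle, most of them also in other tissues (miR-208a, miR-208b, miR-486, miR-378, miR-22, miR-26a, miR-143, miR-145 and miR-199a-3p) had 7 members tested. Of these, 0 of 7 passed by limma in any of the 6 comparisons, beside 15.8% of all miRNAs in WD+CCl4, 1.27% in ND+CCl4 and 10.8% in WD+oil, each against ND+oil. The median log2 difference of the 7 was -0.20 in WD+CCl4, -0.53 in ND+CCl4 and -0.22 in WD+oil, each against ND+oil, beside -0.17, -0.16 and -0.14 over all miRNAs. Below 0 lay 5, 5 and 4 of the 7 in the same order, beside 93, 96 and 91 of all 158. With an unadjusted limma p under 0.05 there were 1, 2 and 2 of the 7, beside 34.8%, 22.2% and 29.1% of all. Each of these was higher than in ND+oil. They were miR-22 in WD+CCl4 (1.24), ND+CCl4 (1.47) and WD+oil (1.31), and miR-378 in ND+CCl4 (1.22) and WD+oil (1.32). Lists of other cell types were set beside these for WD+CCl4 against ND+oil. By limma, with 15.8% of all miRNAs called, 3 of the 4 tested hepatocyte miRNAs passed higher. Lower calls were made for 1 of 3 red cell miRNAs (median log2 difference -0.69), 1 of 3 platelet miRNAs (-1.02) and 2 of the 3 tested leukocyte miRNAs (-1.58). Every tested member of these 3 lists lay below 0, as did 93 of all 158. The 1 call in the red cell list and the 1 in the platelet list are single miRNAs. Of the 2 smooth muscle miRNAs (miR-143 and miR-145) 0 passed. The hepatocyte list summed to 4954 to 109839 on the deposited scale in WD+CCl4, against 1215 to 2222 in ND+oil, without overlap. The red cell list, most of whose sum is miR-451 (log2 difference -0.10, adjusted p = 0.858), summed to 19874 to 122646 in WD+CCl4, against 52213 to 115468 in ND+oil. The platelet list (miR-126-3p, miR-223 and miR-191) summed to 3127 to 27352 in WD+CCl4, against 21703 to 32266 in ND+oil. Most of that sum is miR-223 (median 14569 in WD+CCl4, beside 17390 for the list), so it is largely a value of 1 miRNA. The leukocyte list (miR-142-3p, miR-150, miR-155 and miR-181a) summed to 699 to 5297, against 3552 to 9016. Most of its sum is miR-150 (median 2244 in WD+CCl4, beside 2556 for the list). With a haemolysis index (log2 miR-451 minus log2 miR-23a) as a covariate 0 of 4 muscle miRNAs passed in any comparison, where 26 of all 158 passed in WD+CCl4 against ND+oil. The part of the hepatocyte, platelet and leukocyte lists was not tested.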

How the data were processed

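Exosomal RNA of 24 serum samples was read on the NanoString nCounter mouse miRNA panel. The unit of the values the authors deposited is a signal, namely digital counts multiplied by 1 factor per library (0.397 to 5.72), with values under 1 listed as 1 and control probes unscaled, as the values show. After division by that factor, 14571 of the 14571 values over 1 were whole (100%) within 0.05 counts. The sources used here name neither the software nor the isolation of exosomes. RNA was extracted with a miRNeasy micro kit, per the labels. The background limit was the mean plus 2 SD of 8 negative controls. Groups were tested with limma 3.58.1 in R 4.3.3, with a trend on log2(value + 1), 4 group means over 24 samples, two-sided, on miRNAs above the limit in at least 6 samples. Folds come from log2 differences, and the pseudocount understates those of low miRNAs. The fits were first tested on simulated data. Correlations used 100000 permutations; the relations with the haemolysis index and miR-122 were chosen after the values were seen. All 5 members are named, with the 3 nearest patterns of each member above the limit in at least 12 samples. The members and lists were chosen with earlier results of these data known.

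Residuals from the group means of same-numbered samples correlated above 0.1 in 6 of 6 pairs for WD+oil with ND+oil (0.32 to 0.75) and for WD+CCl4 with ND+CCl4 (0.28 to 0.84), and in 3 to 5 of 6 for the other pairs of groups. Samples with different numbers were not compared, so pairing by number was not tested apart from the difference in depth between replicates 1 to 3 and 4 to 6. The labels do not say that a number marks a shared cage or day. Alternatives used the recovered counts in DESeq2 1.42.0 and edgeR 4.0.16, other scalings, filters, pseudocounts (0.5 and 10), covariates, the replicate block, and libraries left out; replicates 1 to 3 and 4 to 6 alone were added after the data were seen.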

Additional observations from a re-analysis of the deposited data

Results flagged for a closer look

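Within each group of 6 the highest and lowest value of each member were compared with the rest, on the log2 scale, over 20 groups, and 3 libraries lay far from the others of their group. Chance flags about 1 in 20 groups. miR-133a in ND+CCl4 replicate 3 was highest, at 664 on the deposited scale beside 104 to 177 in the other 5, with a gap of 0.712 of the range of the group. miR-206 in WD+CCl4 replicate 2 was lowest, at 9.82 or 5 counts, with a gap of 0.654 of the range. miR-206 in ND+oil replicate 2 was also lowest, at 32.7 or 6 counts, with a gap of 0.647. Both miR-206 values lie below the background limits of their libraries (31.9 and 31.0 counts).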

How the results depend on the processing

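In 40 alternative settings, 24 of them leaving out 1 library, 0 muscle miRNAs passed in any comparison; the lowest adjusted p was 0.0949, for miR-499 between WD+CCl4 and ND+CCl4 in replicates 4 to 6 alone (log2 1.51). The filter to miRNAs above the limit in all samples left no member, and gave no value for them. With the replicate block the log2 differences were unchanged (miR-499 1.35 between WD+CCl4 and WD+oil, adjusted p = 0.262) and no call of a member changed. Of 956 recomputed differences 903 kept their direction and 53 did not, none of them past the threshold; the causes were not tested.

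The changes of sign, as log2 differences, were these. For ND+CCl4 against ND+oil, miR-133a was 0.051 by DESeq2, 0.024 by edgeR, 1.09 with spike-in scaling and 0.26 with total count as covariate; miR-499 was 0.23, 0.022 and 1.12 in the first 3 of these, 0.44 with background subtracted and 0.52 in replicates 1 to 3; miR-1 was 0.010 with median centring, 1.22 with spike-in scaling, 0.44 with background subtracted and 0.25 with total count; miR-206 was -0.068 with the haemolysis index (log2 miR-451 minus log2 miR-23a), -0.31 with total count and -0.091 in replicates 4 to 6. For WD+CCl4 against ND+oil, miR-1 was -0.032 by DESeq2, -0.083 by edgeR, -0.0080 with a pseudocount of 10, -0.058 with the haemolysis index and -0.77 in replicates 1 to 3; miR-133a was 1.41 with spike-in scaling, 0.047 with background subtracted, 0.38 with total count, 0.044 without the libraries that stand apart and 0.45 in replicates 4 to 6; miR-206 was 0.71 with spike-in scaling and 0.10 with background subtracted. miR-206 in WD+CCl4 against WD+oil was 1.04 and 0.90 in those settings. For WD+CCl4 against ND+CCl4, miR-133a was -0.054 by DESeq2, -0.053 by edgeR and -0.39 in replicates 1 to 3, miR-499 -0.055 by DESeq2 and -0.41 in replicates 1 to 3, and miR-1 -0.49 in replicates 1 to 3. The median over all miRNAs in WD+CCl4 against ND+oil was 1.37 with spike-in scaling, beside -0.17. With that scaling miR-1 (1.57) and miR-499 (1.83) kept their sign in this comparison, but stood higher than in the main setting. Over all miRNAs the number passing ran from 2 to 47 across settings in WD+CCl4 against ND+oil (25 in the main setting), 0 to 19 in ND+CCl4 against ND+oil (2), 1 to 58 in WD+oil against ND+oil (17), 0 to 20 in WD+CCl4 against ND+CCl4 (1), 0 to 2 for the interaction (0), and was 0 in WD+CCl4 against WD+oil in each setting.

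Leaving out 1 library gave ranges that cross 0 for miR-1 in ND+CCl4 (-0.41 to 0.21) and WD+CCl4 (-0.19 to 0.39) against ND+oil, and in WD+CCl4 against ND+CCl4 (-0.014 to 0.42). So did miR-133a in WD+CCl4 against ND+oil (-0.32 to 0.10), and miR-206 (-0.21 to 0.17) and miR-499 (-0.67 to 0.18) in ND+CCl4 against ND+oil. The correlation of miR-133a with miR-499 did not pass without the 2 farthest samples (0.19), in replicates 1 to 3 (0.57) or in replicates 4 to 6 (0.18), and passed without the libraries that stand apart (0.72), with background subtracted (0.57) and on counts scaled to the total (0.60). That of miR-133a with miR-206 was 0.023 in replicates 4 to 6, 0.060 with background subtracted and 0.23 on counts scaled to the total. That of miR-206 with miR-499 was 0.090 in replicates 1 to 3, 0.26 in replicates 4 to 6, 0.062 without the libraries that stand apart, 0.32 with background subtracted and 0.13 on counts scaled to the total.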

Other observations

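The 5 members were set against the haemolysis index and miR-122, after removal of the group means. None of these 10 relations passed, with p-values adjusted over 15 relations that include 5 with the background limit, which are not read because both sides carry the scaling factor of the library. The Pearson r was highest for miR-499 with miR-122, at 0.44 (permutation p = 0.032, adjusted p = 0.136, n = 24; Spearman rho = 0.27, adjusted p = 0.363). It was 0.19 without the 2 farthest samples, 0.19 in the shallower and -0.07 in the deeper set of replicates.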
